A study of Mus musculus with 8 samples.

Results

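The genes described here are 6 regulators and effectors of skeletal muscle wasting: Trim63, Fbxo32, Foxo1, Foxo3, Klf15 and Mstn. They were chosen by name and by Ensembl ID, and 5 of the 6 have a row among the 17352 rows of the expression table. The row of Mstn, which encodes the muscle growth inhibitor myostatin, was not analysed here. Expression was measured on 1 array per animal in the gastrocnemius, a muscle of the calf. The animals were 24 weeks old and on a C57BL/6 background, 4 of them wild type and 4 Anxa2 knockout. Annexin A2 is a membrane-binding protein with a part in muscle repair, the subject of the series. The labels state neither how the knockout was made nor in which cells it acts. They give no sex, litter or day for any animal, so p-values measure the spread between these samples. Values are RMA log2 values, in which a difference of 1 is a 2-fold change. Each row has its own probes, so levels are compared between animals and never between genes.

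Muscle loses mass when protein breakdown outpaces synthesis. Insulin and insulin-like growth factor act through the kinase Akt to keep FoxO transcription factors out of the nucleus; when this signal falls, as in fasting, FoxO proteins turn on genes of protein breakdown. Glucocorticoids feed into the same genes through their receptor and through Klf15. The best known targets are the muscle ubiquitin ligases MuRF1, encoded by Trim63, and atrogin-1, encoded by Fbxo32, which mark proteins for the proteasome. Their messages are widely used as signs of an atrophy programme, but they are present in resting muscle as well.

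The promoters of Trim63 and Klf15 are shown because they carry letters of the 2 signals named above and of a binding sequence of the clock. They come from RefSeq (GRCm38.p6), run 5′ to 3′ on the plus strand, and hold 250 bases before and 50 bases after the transcription start given in that table, where 5 of the 6 genes, all but Fbxo32, were matched. For Klf15 this start lies inside the span of the annotated gene, downstream of its first base. The Trim63 window lies at chr4:134314870-134315169 and that of Klf15 at chr6:90462326-90462625. Capitals mark, in Trim63, a glucocorticoid receptor palindrome joined to forkhead letters and then TATAAA, and in Klf15 each match to CACGTG.
Trim63: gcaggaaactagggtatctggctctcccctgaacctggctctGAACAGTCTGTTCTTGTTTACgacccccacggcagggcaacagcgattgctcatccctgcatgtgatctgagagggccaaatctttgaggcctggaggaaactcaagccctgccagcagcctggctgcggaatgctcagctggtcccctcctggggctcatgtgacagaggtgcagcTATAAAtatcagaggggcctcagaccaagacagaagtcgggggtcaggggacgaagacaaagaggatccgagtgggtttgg
Klf15: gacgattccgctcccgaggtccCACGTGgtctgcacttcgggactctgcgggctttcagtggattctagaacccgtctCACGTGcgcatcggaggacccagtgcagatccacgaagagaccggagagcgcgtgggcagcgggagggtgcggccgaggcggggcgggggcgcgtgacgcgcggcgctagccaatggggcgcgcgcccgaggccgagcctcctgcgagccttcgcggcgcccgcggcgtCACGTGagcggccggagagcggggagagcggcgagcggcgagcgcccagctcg
In Trim63 the palindrome GAACANNNTGTTC spans bases 208 to 196 before the start. It overlaps the receptor core TGTTCT, at 200 to 195, and the forkhead sequence TGTTTAC follows at once, at 194 to 188. Both strands of 32851 mouse promoter windows of the same length were searched. The palindrome was found in 19 (0.0578%), TGTTCT in 19.0% and a forkhead sequence (TGTTTAC or TGTTTGC) in 8.48%. TGTTCT directly followed by a forkhead sequence was found in 1 window, that of Trim63. The Trim63 TATAAA lies 31 to 26 bases before the start, and 13.6% of windows hold these letters. Klf15 holds 3 matches to CACGTG, the E-box read by the clock proteins CLOCK and BMAL1, at 228 to 223 and 172 to 167 bases before the start and across the start itself. CACGTG was found in 7.15% of windows, and at least 3 matches in 29 windows (0.0883%). The palindrome, the joined sequence and CACGTG were counted after the letters had been read. The more common CANNTG and CACCC, also searched, occur in 72.3% and 57.5% of windows. None of the marked sequences was found in the windows of Foxo1 and Foxo3, and that of Mstn held TATAAA at 29 to 24 bases before the start. A match describes the letters and is not evidence of binding.

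None of the 5 genes passed the test for a difference between genotypes. In limma with Benjamini-Hochberg adjustment over all 17352 rows, each had an adjusted p of 1.00, and the share of all rows past an adjusted p of 0.05 was 0%. At an unadjusted p under 0.05 the share was 1.55% of all rows, and 0 of the 5 genes were among them. Wild-type and knockout values overlapped for all 5, where 1.31% of all rows had groups that did not overlap. The mean was lower in the knockout for 2 of the 5 genes, Trim63 and Foxo1, and for 52.9% of all rows. The median difference was 0.05 over the 5 genes and -0.01 over all rows. The samples are whole muscle, in which fewer fibres and less RNA per fibre cannot be told apart.

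Differences among the arrays touch these results. Wild type replicate 4 stood apart from the other arrays, with a first principal component score of 46.5, and knockout replicate 2 came next with 13.8, while the other 6 lay between -15.5 and -3.47. Both also had the narrowest interquartile ranges, 2.77 and 2.88, against 3.06 to 3.16 in the other 6. By mean correlation with the other arrays only wild type replicate 4 stood apart, at 0.978. Knockout replicate 2, at 0.989, lay within the 0.988 to 0.991 of the rest. Further, the 8 arrays fall on 2 sides that cross genotype. Row ENSMUSG00000086503_at read 8.98 to 9.64 in wild type replicates 1 and 2 and knockout replicates 3 and 4, and 3.56 to 4.07 in the other 4 arrays. Row ENSMUSG00000069045_at split the same arrays the opposite way, at 2.59 to 2.71 and 8.40 to 9.05. No table given here names the gene of either. The sides are called high and low after the first of these rows, and both arrays that stand apart lie on the low side.

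The ubiquitin ligase genes come first. Trim63 (row ENSMUSG00000028834_at) read 12.41, 12.40, 11.61 and 11.52 in wild type replicates 1 to 4, and 11.79, 11.70, 11.37 and 12.06 in knockout replicates 1 to 4. The wild-type animals formed a high and a low pair, and 3 of the 4 knockout values fell between the lowest and the highest wild-type value. The means were 11.98 ± 0.49 (SD, n = 4) and 11.73 ± 0.29 (SD, n = 4). The difference of -0.26 (SE 0.23, limma adjusted p 1.00) had a 95% interval of -0.77 to 0.26, so that a knockout level between 0.586 and 1.20 times that of wild type was within the interval.

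Fbxo32 (row ENSMUSG00000022358_at) read 10.83, 10.76, 10.53 and 9.48 in wild type replicates 1 to 4, and 10.83, 9.92, 10.47 and 10.79 in knockout replicates 1 to 4. The low values were those of wild type replicate 4 and knockout replicate 2, the arrays that stand apart, and the other 6 animals lay within 10.47 to 10.83. The means were 10.40 ± 0.62 (SD, n = 4) and 10.51 ± 0.42 (SD, n = 4), a difference of 0.10 (SE 0.30, 95% interval -0.57 to 0.77, limma adjusted p 1.00). The sign turned without wild type replicate 4, where the difference was -0.20, and without knockout replicate 1, where it was -0.0053.

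**Figure D1:**
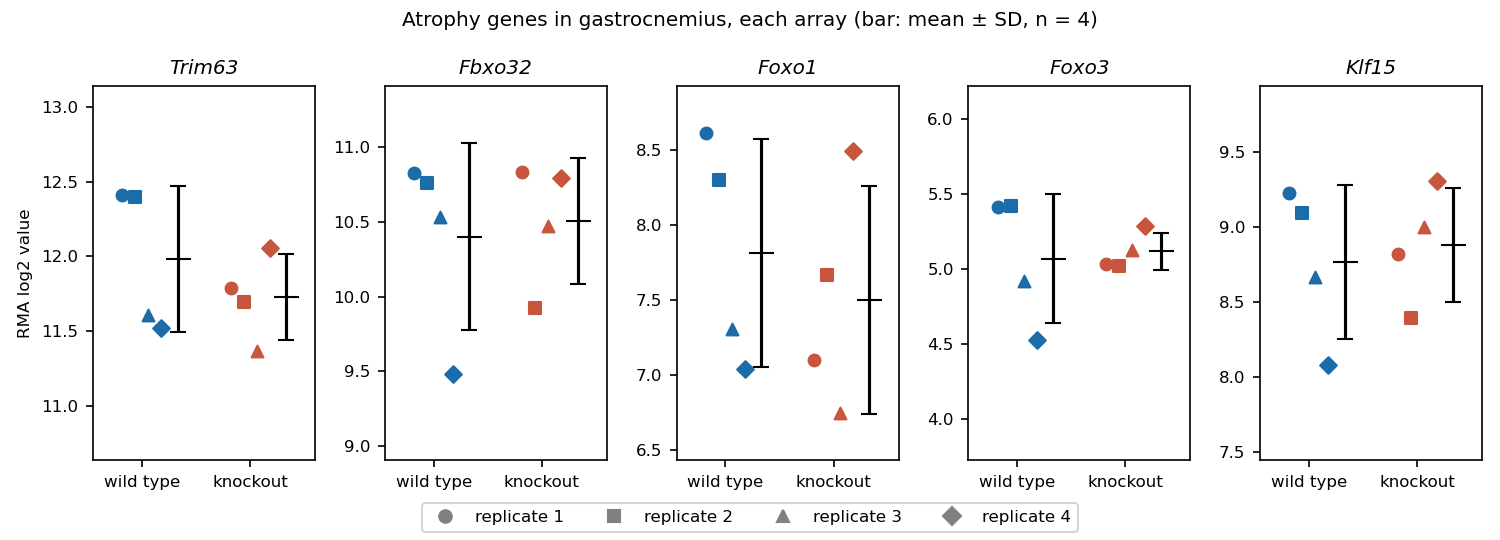
RMA log2 value (vertical axis, the same span in each panel) of 5 atrophy genes in wild-type and Anxa2 knockout gastrocnemius, 1 point per array with the marker showing the replicate number, and bars for mean ± SD (n = 4). The groups overlap in every panel, and wild type replicate 4 (blue diamond) is the lowest wild-type array throughout.

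The FoxO factors are the transcriptional arm of the pathway. Foxo1 (row ENSMUSG00000044167_at) read 8.61, 8.31, 7.30 and 7.04 in wild type replicates 1 to 4, and 7.10, 7.67, 6.75 and 8.50 in knockout replicates 1 to 4. High and low animals occurred in both genotypes, with a 2.98-fold range among wild-type animals and a 3.36-fold range among knockout animals. The means were 7.82 ± 0.76 and 7.50 ± 0.76 (SD, n = 4 each), a difference of -0.31 (SE 0.42, limma adjusted p 1.00). Its 95% interval of -1.26 to 0.63 reached past a 2-fold reduction, the only such interval among the 5 genes. A 2-fold reduction of Foxo1 was thus within what these 8 arrays allow.

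Foxo3 (row ENSMUSG00000048756_at) read 5.41, 5.42, 4.92 and 4.53 in wild type replicates 1 to 4, and 5.04, 5.02, 5.13 and 5.29 in knockout replicates 1 to 4. The knockout animals lay within 0.27 log2 units of each other, inside the wild-type range of 0.89. The means were 5.07 ± 0.43 and 5.12 ± 0.12 (SD, n = 4 each), a difference of 0.05 (SE 0.19, 95% interval -0.37 to 0.47, limma adjusted p 1.00). The sign turned to -0.13 without wild type replicate 4, to -0.0018 without wild type replicate 3 and to -0.0096 without knockout replicate 4. No detection call came with the table, and RMA compresses differences of rows near background. The Foxo3 values of 4.53 to 5.42 lay around the array medians of 4.95 to 5.09. Whether this row is near background was not tested.

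Klf15 encodes a zinc-finger factor that glucocorticoids induce and that promotes breakdown of branched-chain amino acids in muscle. Its row, ENSMUSG00000030087_at, read 9.23, 9.10, 8.67 and 8.08 in wild type replicates 1 to 4, and 8.82, 8.39, 9.00 and 9.31 in knockout replicates 1 to 4. Wild type replicate 4 and knockout replicate 2 were again the lowest of their groups. The means were 8.77 ± 0.52 and 8.88 ± 0.38 (SD, n = 4 each), a difference of 0.11 (SE 0.26, 95% interval -0.47 to 0.69, limma adjusted p 1.00). The difference was -0.12 without wild type replicate 4 and -0.030 without knockout replicate 4.

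**Figure D2:**
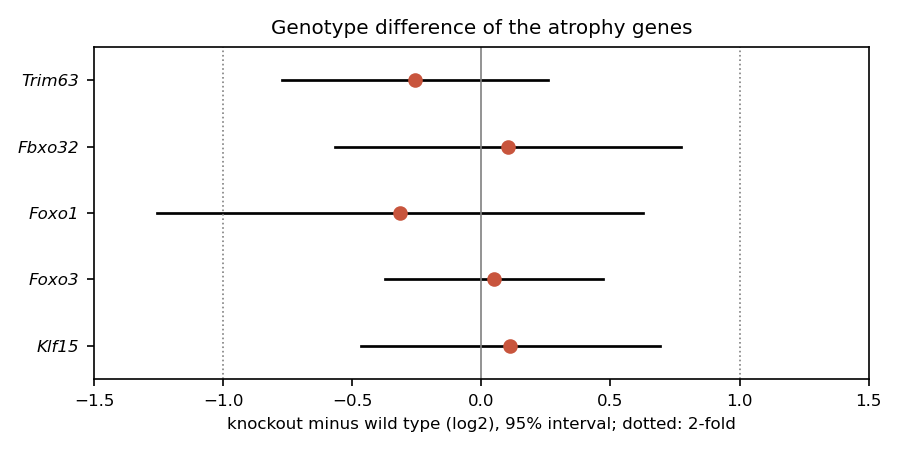
Knockout minus wild type on the log2 scale (horizontal axis) for each gene, with points for the difference of means over 4 arrays per genotype and lines for the 95% interval of the limma fit. All 5 intervals include 0, and only that of Foxo1, from -1.26 to 0.63, crosses a dotted line at a 2-fold change.

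The 4 highest values of Foxo3, and likewise of Klf15, came from wild type replicates 1 and 2 and knockout replicates 3 and 4, the arrays on the high side of ENSMUSG00000086503_at. Within wild type, replicates 1 and 2 were above replicates 3 and 4 for all 5 genes, so the high and low wild-type pairs are also the sides. The knockout arrays did not keep to this order for Trim63 and Foxo1, where replicate 3, on the high side, was the lowest of all 8 arrays. For Fbxo32 the highest array was knockout replicate 1, on the low side. On the high side, with 2 arrays per genotype, the knockout minus wild-type difference was -0.69 for Trim63, -0.84 for Foxo1, -0.21 for Foxo3, -0.16 for Fbxo32 and -0.01 for Klf15. On the low side it was 0.18 for Trim63, 0.21 for Foxo1, 0.30 for Foxo3, 0.37 for Fbxo32 and 0.23 for Klf15. Each gene thus differed in sign between the sides. This difference between sides was not tested, and the low side holds both arrays that stand apart. With the side as a block in the fit, the adjusted p of each of the 5 genes was 1.00.

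All 5 genes varied more between animals of a genotype than the median row. This spread includes any difference between the high and low sides, since each genotype holds arrays of both. The pooled within-genotype SD was 0.76 for Foxo1, 0.53 for Fbxo32, 0.45 for Klf15, 0.40 for Trim63 and 0.32 for Foxo3, against a median of 0.18 over all rows. For Foxo1, 91 rows (0.524%) had an SD at least as large, Foxo1 included, and for Fbxo32 the share was 1.83%. It was 3.56% for Klf15, 5.71% for Trim63 and 12.9% for Foxo3. Without wild type replicate 4 and knockout replicate 2, Fbxo32 fell to an SD of 0.18, which 27.9% of rows reached, and Klf15 to 0.27, reached by 8.59%. Without these arrays the SD was 0.81 for Foxo1 and 0.41 for Trim63, reached by 0.409% and 2.36% of rows. That of Foxo3 was 0.22, reached by 15.9%, and the median over all rows was 0.13.

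Values of several of the genes moved together from animal to animal. Pearson's r over the 8 arrays was above 0 in all 10 pairs of the 5 genes and had an exact permutation p adjusted over the 10 pairs under 0.05 in 5 of them. The count was 1 for deviations from the genotype means, and 0 without wild type replicate 4 or without both arrays that stand apart. By Spearman's rho 2 pairs passed, Trim63 with Foxo1 and Foxo3 with Klf15. As a background over the same arrays, the share of rows outside the gene list with an r of at least 0.7 was 2.01% for Trim63, 1.86% for Foxo1, 8.77% for Foxo3, 11.3% for Klf15 and 12.3% for Fbxo32. An r of -0.7 or lower was found for 3.33%, 2.99%, 16.2%, 18.4% and 20.7% of rows, in the same order. This cut is looser than the call of a pair: Foxo1 with Foxo3 had r = 0.732 and did not pass. Rows with an r as high as a called pair made up 0.0807% to 6.67% of all other rows. The lowest share was for Trim63 by r with Foxo1, the highest for Foxo3 by r with Fbxo32. The share of rows with an r above 0 was not counted. The median r with rows outside the list was -0.11 for Trim63, -0.09 for Foxo1, -0.25 for Foxo3, -0.26 for Klf15 and -0.29 for Fbxo32.

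Trim63 followed Foxo1 closely. Pearson's r was 0.913 (exact two-sided permutation p 0.0025, adjusted 0.0087, n = 8) and rho 0.905 (exact permutation p 0.0046, adjusted 0.036). Wild type replicates 1 and 2 and knockout replicate 4 were the 3 highest arrays for both genes, and knockout replicate 3 was the lowest for both. Without wild type replicates 1 and 2, the arrays farthest from the Trim63 median, r was 0.882 (exact permutation p 0.019, adjusted 0.19, n = 6). It was 0.916 without wild type replicate 4 and knockout replicate 2 (adjusted p of the exact test 0.14), 0.901 without wild type replicate 4 alone (adjusted 0.069) and 0.913 for deviations from the genotype means (adjusted 0.052). In these 4 alternatives the size of r changed little but the call was lost. For deviations from the means of genotype by side r was 0.893, with no test. Foxo1 ranked 15 among all other rows by its r with Trim63, and Trim63 ranked 14 by its r with Foxo1.

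Foxo3 with Klf15 gave r = 0.909 (exact permutation p 0.0017, adjusted 0.0087, n = 8) and rho = 0.881 (exact permutation p 0.0072, adjusted 0.036). Without wild type replicates 2 and 4, the farthest from the Foxo3 median, r was 0.838 (exact permutation p 0.046, adjusted 0.23, n = 6). It was 0.876 without both arrays that stand apart (adjusted p of the exact test 0.14) and 0.809 without wild type replicate 4 alone (adjusted 0.080), so the call was lost in these 3 alternatives. For deviations from the means of genotype by side r was 0.836, with no test. Klf15 ranked 94 among rows by its r with Foxo3, and Foxo3 ranked 231 by its r with Klf15.

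Fbxo32 with Klf15 gave r = 0.906 (exact permutation p 0.0026, adjusted 0.0087, n = 8), but rho was 0.690 (exact permutation p 0.069, adjusted 0.14). Without both wild type replicate 4 and knockout replicate 2, the arrays farthest from the Fbxo32 median, r was 0.487 (exact permutation p 0.31, n = 6). It was 0.803 without wild type replicate 4 alone and 0.886 without knockout replicate 2 alone. For deviations from the means of genotype by side r was 0.977, with no test. Klf15 ranked 313 among rows by its r with Fbxo32, and Fbxo32 ranked 251 by its r with Klf15. Fbxo32 with Foxo3 gave r = 0.820 (exact permutation p 0.012, adjusted 0.029, n = 8), rho = 0.595 (exact permutation p 0.13, adjusted 0.15) and r = 0.550 without both of the same arrays (exact permutation p 0.27, n = 6). Foxo3 ranked 1157 among rows by its r with Fbxo32, and Fbxo32 ranked 578 by its r with Foxo3. Trim63 with Foxo3 gave r = 0.771 (exact permutation p 0.021, adjusted 0.042, n = 8) and rho = 0.738 (exact permutation p 0.046, adjusted 0.14). It was 0.508 without wild type replicates 1 and 2 (exact permutation p 0.29, n = 6), and 0.498 for deviations from the means of genotype by side with all 8 arrays kept. For deviations from the genotype means it was 0.858. Foxo3 ranked 186 among rows by its r with Trim63, and Trim63 ranked 948 by its r with Foxo3. Pearson's r of Trim63 with Foxo3 was lower without those 2 animals, which both lie on the high side. Without wild type replicate 1 alone it was 0.707, without wild type replicate 2 alone 0.703, and without both arrays that stand apart 0.847. Leaving out the arrays farthest from the median of a gene narrows its range, here and for Fbxo32. A lower r over 6 arrays thus cannot show that a relation is absent.

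**Figure D3:**
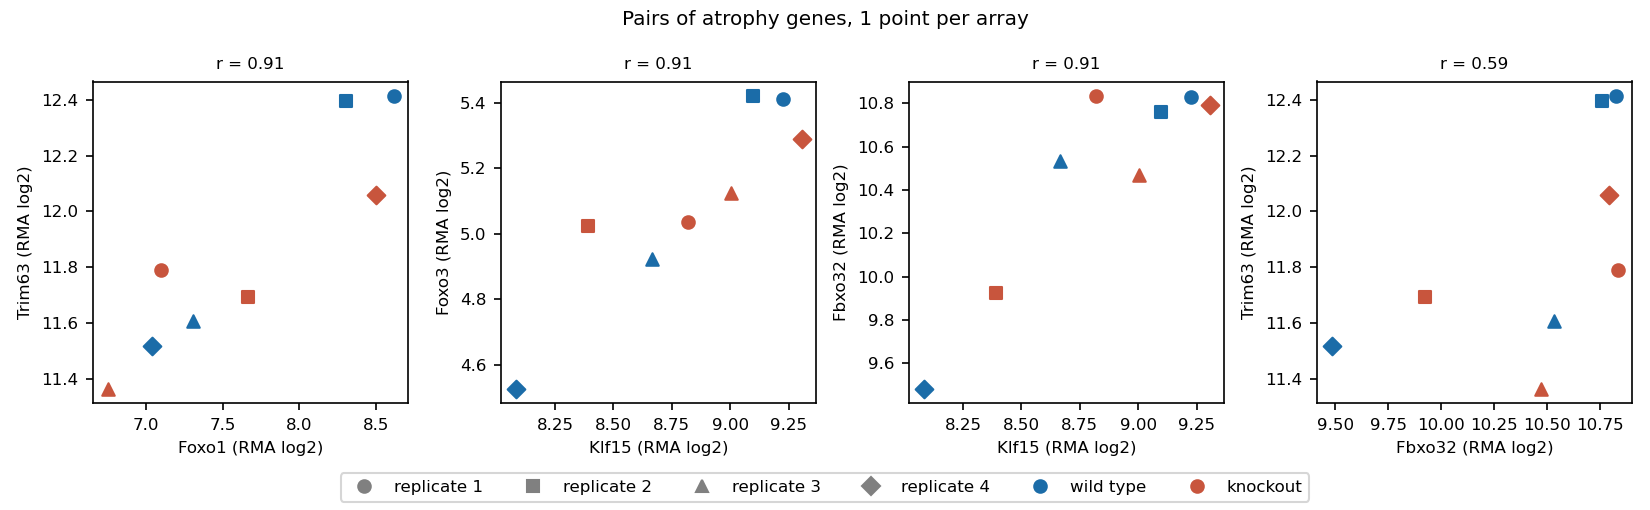
RMA log2 values of 4 pairs of genes, 1 point per array, coloured by genotype with the marker showing the replicate number. Trim63 with Foxo1 has r = 0.91, and in the panel of Fbxo32 against Klf15 wild type replicate 4 and knockout replicate 2 lie low, with r = 0.49 over the other 6 arrays.

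The ubiquitin ligase genes, often read as a pair, did not pass together. Trim63 with Fbxo32 gave r = 0.586 (exact permutation p 0.11, adjusted 0.12, n = 8) and rho = 0.714 (exact permutation p 0.058, adjusted 0.14), while 4.76% of rows had an r as high with Trim63 and 16.8% with Fbxo32. In knockout replicate 3, the lowest Trim63 array at 11.37, Fbxo32 read 10.47. In wild type replicate 4 Fbxo32 was lowest at 9.48 while Trim63 read 11.52. The other pairs that did not pass were Foxo1 with Foxo3 (r = 0.732, exact permutation p 0.033, adjusted 0.055), Trim63 with Klf15 (r = 0.632, exact permutation p 0.094, adjusted 0.12), Foxo1 with Klf15 (r = 0.610, exact permutation p 0.11, adjusted 0.12) and Fbxo32 with Foxo1 (r = 0.468, exact permutation p 0.25, adjusted 0.25). Whether r differed between pairs was not tested.

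**Figure D4:**
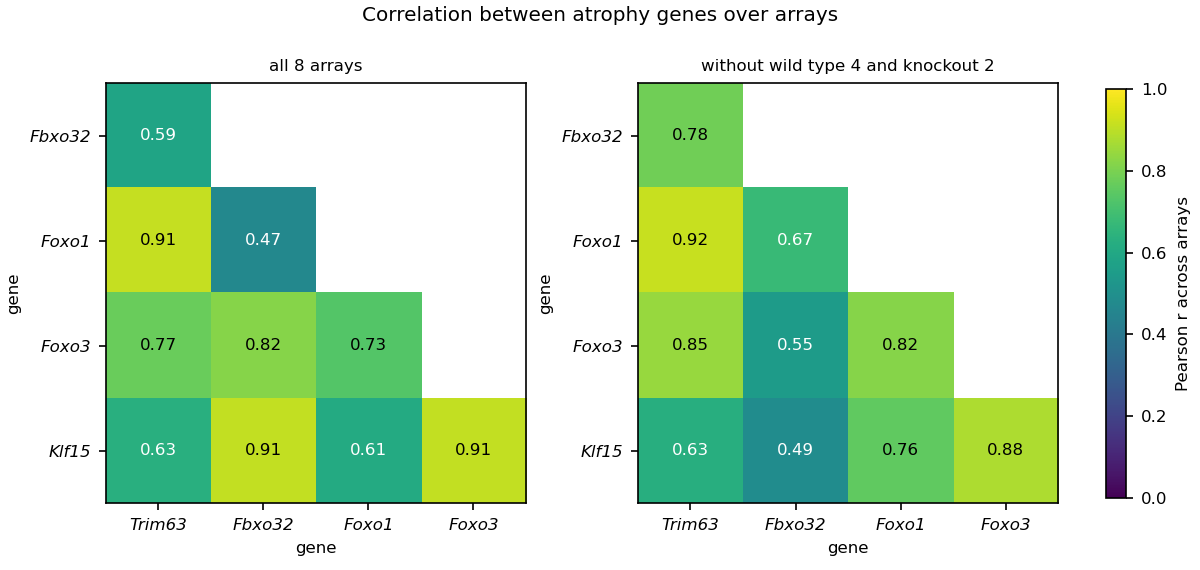
Pearson's r between pairs of the 5 genes (colour and printed value), over all 8 arrays on the left and over the 6 arrays without wild type replicate 4 and knockout replicate 2 on the right. Trim63 with Foxo1 reads 0.91 and 0.92, whereas Fbxo32 with Klf15 goes from 0.91 to 0.49.

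The row outside the list most like all 5 genes was ENSMUSG00000036391_at, with a mean r of 0.875 over the 5 genes (0.951 with Foxo3, 0.820 with Foxo1) and values from 6.91 to 8.39. The next was ENSMUSG00000024471_at, with a mean r of 0.864 (0.965 with Foxo3, 0.763 with Trim63) and values from 12.6 to 13.2. Rows with a mean at or above the median row mean were considered, over 8 arrays. Their genes are likewise unnamed here.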

How the data were processed

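Total RNA of 8 gastrocnemius samples was labelled with a 3'-primed Affymetrix kit, per the labels' protocols. The deposited values are log2 values from RMA, with R 3.1.2, per the submitters' processing notes; for the probe-set definition, filters and genome build the sources used here give nothing. RMA forces a common distribution of probe intensities on all arrays, so values are relative within an array. The row values summarized from them still differed in spread between arrays. Their interquartile range was 2.77 in wild type replicate 4, 2.88 in knockout replicate 2 and 3.06 to 3.16 in the others. The number of arrays limits the precision. The genotype difference of all 17352 rows was estimated in limma 3.58.1 (R 4.3.3), genotype being the only term, with default moderation and Benjamini-Hochberg adjustment. The fit was tested on simulated data. Correlations used all 8 arrays with exact two-sided permutation of pairings, computed in Python 3.11.15 with numpy 2.4.6. Alternatives covered filters, scaling, weights, blocks and arrays left out.

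The genes, lists and tests were chosen with earlier results of these data known. The rule named all listed genes, and 2 rows most like them. The name table holds 49997 genes and matched 0 row IDs, so the symbols of the listed genes come from the list itself. The other pathway and cell type marker lists and the row of Anxa2 were not analysed here, so neither the knockout nor the tissue was checked. The replicate numbers were not taken as pairs because no label says that they mark a shared litter or day. Deviations of same-numbered arrays from their genotype means correlated at -0.07, -0.25, 0.18 and -0.24.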

Additional observations from a re-analysis of the deposited data

How the results depend on the processing

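Over 18 alternative fits no gene passed an adjusted p of 0.05, with adjusted p from 0.94 to 1.00, and Trim63 and Foxo1 stayed lower in the knockout in all 18. The sign turned for the other three. Array weights gave -0.027 for Fbxo32, -0.12 for Foxo3 and -0.043 for Klf15. Leaving out both arrays that stand apart gave -0.0079 for Fbxo32 and -0.10 for Foxo3. Leaving out 1 array at a time gave -0.20 to 0.30 for Fbxo32, -0.13 to 0.16 for Foxo3 and -0.12 to 0.28 for Klf15. With the replicate number as a block, the differences kept their values (-0.26 for Trim63, -0.31 for Foxo1) and no call of the 5 genes changed. Over all rows, 0 were higher in every fit. The lower rows numbered 1 in place of 0 with the replicate block, array weights, median centring, quantile normalization and cyclic loess. The count of 5 correlated pairs was 1 for deviations from the genotype means, 0 without both arrays that stand apart, 0 without the 2 arrays farthest from the median of the first gene, and 0 (without wild type replicate 4) to 8 (without knockout replicate 3) when 1 array at a time was left out. It was 3 without wild type replicate 1, wild type replicate 2 or knockout replicate 4 and 2 without knockout replicate 2. The cause of these shifts was not tested. Over 14 alternatives r lay between 0.876 and 0.943 for Trim63 with Foxo1 and between 0.809 and 0.958 for Foxo3 with Klf15.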
